A study of Mus musculus with 20 samples.

Results

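Organic anion transporters of the Slc22 family of solute carriers were followed in mouse kidney through 10 genes: Slc22a6, Slc22a7, Slc22a8, Slc22a19, Slc22a22, Slc22a26, Slc22a27, Slc22a28, Slc22a29 and Slc22a30. They were chosen by symbol from the 24762 genes of the joined count tables. All 10 passed the filter on low counts that left 15549 genes to test, Slc22a27 through its ARLmon libraries, since it stayed below 1 CPM in every WT testosterone library. The kidneys came from orchidectomised male mice, so that all groups lacked their testicular hormones, and were taken after 4 days of replacement. The groups were ARLmon/Y mice given testosterone, ARLmon/Y mice given vehicle, WT C57BL/6J mice given testosterone and WT mice given vehicle, with 5 libraries each and C57BL/6J as the stated strain throughout. ARLmon is a knock-in line whose androgen receptor carries a mutation in the ligand-binding domain that hinders pairing of receptor molecules through that domain. All cells of the body carry it, so actions of the receptor within the kidney and outside it are not separated. The age of the mice, the dose of testosterone and whether each library was 1 animal are not given in the sources used here, and the p-values therefore reflect only how far these libraries scatter, which may be in part technical.

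Reads assigned to genes ran from 10236738 to 18609328 in the ARLmon testosterone libraries, from 11569255 to 16881304 in the ARLmon vehicle libraries, from 8342000 to 15422018 in the WT testosterone libraries and from 8618311 to 38101526 in the WT vehicle libraries. Values are given as CPM, computed from the counts with library sizes scaled by TMM factors, with the libraries of a group in the order of their codes. A gene was called higher or lower at an edgeR adjusted p below 0.05, adjusted over all genes tested. In WT vehicle mice 1 library, GC078606, was the lowest of its group for 9 of the 10 genes. In ARLmon testosterone mice GC078615 was the highest for 7 of the 10.

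Organic anion transporters move negatively charged drugs, toxins, hormones and metabolites across the membranes of proximal tubule cells, the segment that clears such compounds from blood into urine. On the blood-facing side the products of Slc22a6 (Oat1) and Slc22a8 (Oat3) take up anions in exchange for intracellular dicarboxylates such as alpha-ketoglutarate, and other carriers release them into the tubule lumen. Sex differences in these genes have been described in rodent kidney. Slc22a7 encodes Oat2, Slc22a19 the apical carrier Oat5 and Slc22a22 a prostaglandin carrier known as OAT-PG. Slc22a26 to Slc22a30 belong to a group of closely related genes that expanded in rodents, and the substrates of their products are less well known.

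Of the 10 genes 8 lie side by side on chromosome 19 (GRCm38 with GENCODE M21 annotation, here and below), between 7673061 and 8628299, and no other protein-coding gene lies in that stretch of 955239 bases. The 6 genes Slc22a19, Slc22a26, Slc22a27, Slc22a28, Slc22a29 and Slc22a30 follow each other in that order on the minus strand from 7673061 to 8405111. Slc22a8 (8591254 to 8611835) and Slc22a6 (8618039 to 8628299) come next on the plus strand. Slc22a22 is on chromosome 15 (57243767 to 57477625, minus strand) and Slc22a7 on chromosome 17 (46432183 to 46438457, minus strand). Because several of the 6 neighbours are near copies, the annotated transcripts were compared in windows of 50 bases: 53.3% of the windows of Slc22a28 occur in Slc22a30, 31.0% of those of Slc22a30 in Slc22a28, 25.3% of those of Slc22a27 in Slc22a29 and 23.0% of those of Slc22a29 in Slc22a27. Slc22a6, Slc22a7, Slc22a8, Slc22a22 and Slc22a26 share none with the other members. Of the windows of Slc22a26, 6.21% occur in genes outside the 10, as do 0.457% of those of Slc22a8 and 0.238% of those of Slc22a30. How reads that match more than 1 gene were counted is not given in the sources used here, so the split of reads among Slc22a27 to Slc22a30 is uncertain, and the sum over the 6 neighbours is given beside them.

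The promoters of 3 neighbours are shown because Slc22a28 and Slc22a30 move together in the data below while Slc22a29, which lies between them, has another pattern in the counts. Each runs from 250 bases before to 50 bases after the start site (RefSeq, GRCm38.p6, minus strand of chromosome 19). Capitals mark aligned bases that differ from the partner. Lower case marks matching bases and also bases left unaligned, which number 6 in Slc22a28, 6 in Slc22a30 and 29 in Slc22a29. Slc22a28 (chr19:8131933-8132232) and Slc22a30 (chr19:8405056-8405355) were 98.0% identical over 294 aligned bases, with 6 mismatches, and are capitalised against each other. Slc22a29 (chr19:8218851-8219150) was 79.3% identical to Slc22a30 over 271 aligned bases and is capitalised against Slc22a30.
Slc22a28: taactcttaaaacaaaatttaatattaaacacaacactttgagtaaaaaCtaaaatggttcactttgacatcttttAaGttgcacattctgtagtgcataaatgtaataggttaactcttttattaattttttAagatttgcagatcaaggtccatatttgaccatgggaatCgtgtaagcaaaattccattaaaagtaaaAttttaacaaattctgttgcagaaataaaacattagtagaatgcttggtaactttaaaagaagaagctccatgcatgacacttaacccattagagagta
Slc22a30: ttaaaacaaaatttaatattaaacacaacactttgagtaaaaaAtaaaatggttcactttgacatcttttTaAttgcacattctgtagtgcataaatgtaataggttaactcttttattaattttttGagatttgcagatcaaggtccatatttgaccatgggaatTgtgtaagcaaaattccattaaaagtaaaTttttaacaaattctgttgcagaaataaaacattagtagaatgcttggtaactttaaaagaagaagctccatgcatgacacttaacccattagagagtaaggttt
Slc22a29: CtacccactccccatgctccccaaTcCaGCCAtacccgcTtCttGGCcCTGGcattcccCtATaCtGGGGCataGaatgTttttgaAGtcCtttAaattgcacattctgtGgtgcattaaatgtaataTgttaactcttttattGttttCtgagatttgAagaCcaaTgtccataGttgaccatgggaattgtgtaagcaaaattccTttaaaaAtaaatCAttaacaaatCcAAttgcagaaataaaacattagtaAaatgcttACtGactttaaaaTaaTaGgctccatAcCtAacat

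Of the 10 genes 9 have a RefSeq promoter entry, and Slc22a22 has 2. On either strand TGTTCT, the half-site of androgen response elements, occurred in 3 of the 9 (Slc22a19, Slc22a22 and Slc22a26), against 18.97% of 32851 promoters of the same length. The members are counted by gene and the 32851 by promoter entry, and both entries of Slc22a22 hold a match. The full androgen response element, a pair of half-sites, occurred in 0 of the 9, against 0.0639% of all promoters. These matches describe letters in a 300-base window and are no record of binding.

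The order of the 10 mRNA levels differed between groups. Per kilobase of exon, the scale on which genes can be set side by side, Slc22a8 led in ARLmon vehicle kidneys at 318 ± 48.1 CPM per kb (SD here and for all levels, n = 5 per group), ahead of Slc22a6 at 119 ± 24.2 and Slc22a7 at 101 ± 53.8, which did not differ beyond their spread. In WT testosterone kidneys Slc22a6 led at 368 ± 10.8 CPM per kb, followed by Slc22a7 at 153 ± 30.1, and by Slc22a30 at 99.97 ± 19.8 and Slc22a28 at 94.7 ± 13.8, which lay within each other's spread. In WT vehicle kidneys Slc22a8 (235 ± 85.7 CPM per kb) and Slc22a6 (202 ± 29.4) could not be separated. In ARLmon vehicle kidneys Slc22a30 was near the bottom at 2.67 ± 0.534 CPM per kb, within the spread of Slc22a26 (3.08 ± 1.38) and above Slc22a27 (1.42 ± 0.165). All 10 genes together came to 2036 ± 169 CPM in ARLmon testosterone, 2181 ± 404 in ARLmon vehicle, 2892 ± 189 in WT testosterone and 2137 ± 475 in WT vehicle kidneys. The order above is that of the counts, and the log2 table that the authors deposited places some genes otherwise. There the WT testosterone libraries averaged 5.15 ± 0.197 for Slc22a30, below Slc22a28 at 8.76 ± 0.149. Slc22a7 stood at 6.23 ± 0.312, below Slc22a22 at 8.56 ± 0.351. The normalization of that table is not stated.

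**Figure D1:**
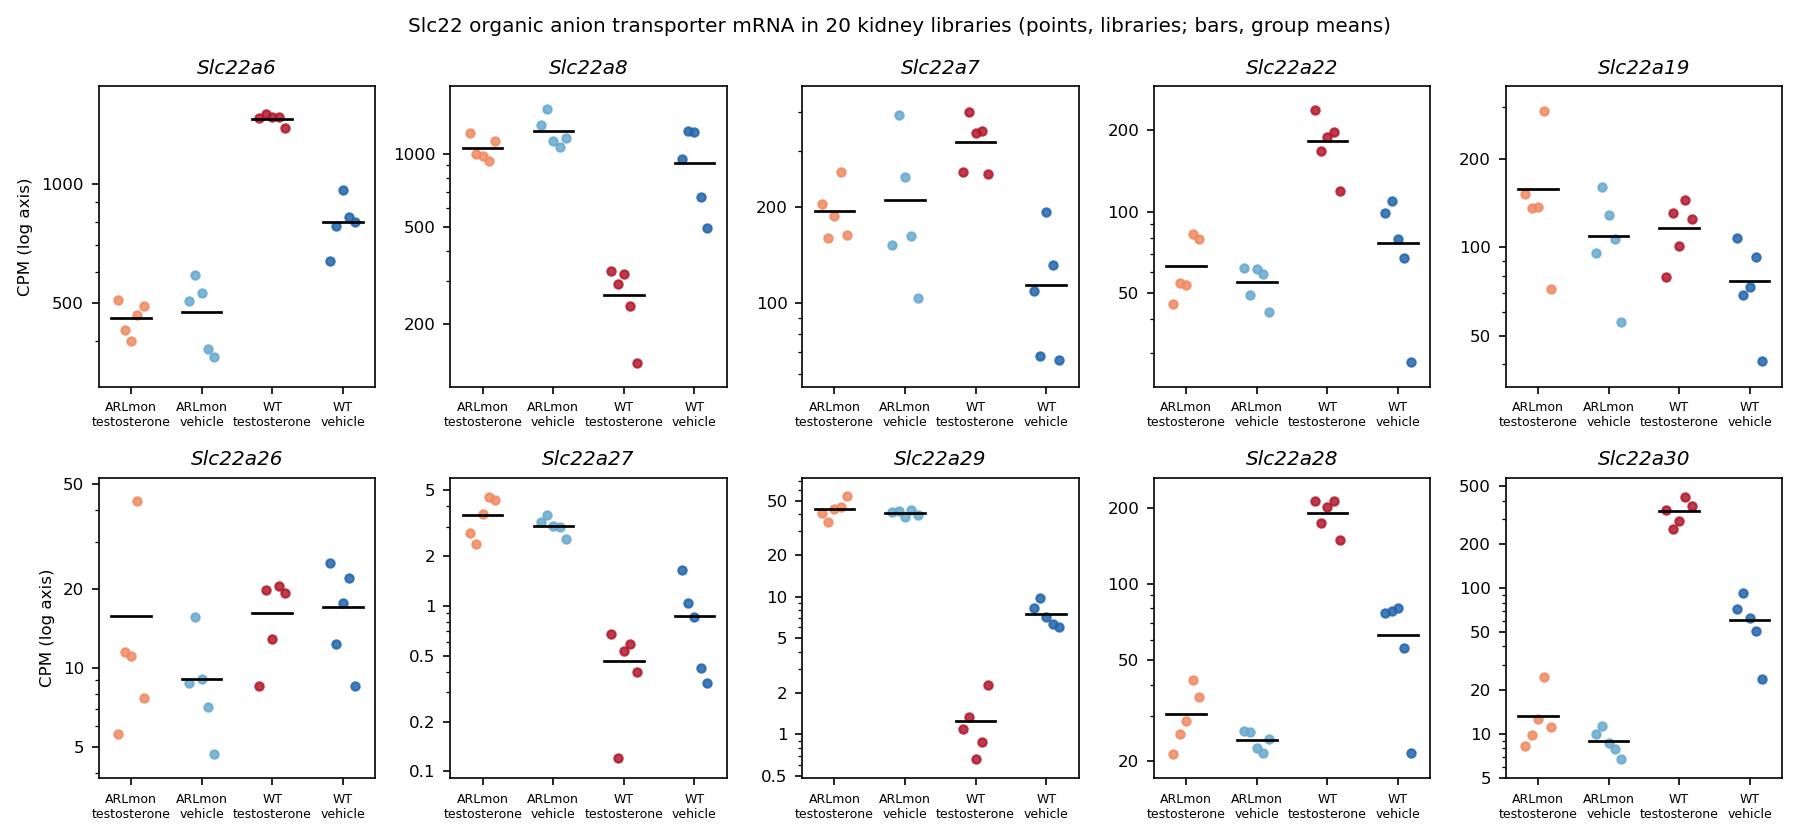
CPM of each of the 10 genes (log axis, own scale per panel) in the 20 libraries, with points for libraries and bars for group means. Slc22a6, Slc22a7, Slc22a22, Slc22a28 and Slc22a30 lie higher in the WT testosterone libraries than in all WT vehicle libraries, and Slc22a8 and Slc22a29 lie lower.

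Slc22a6, the gene of the uptake carrier Oat1, was lower in ARLmon than in WT kidneys and rose with testosterone in WT kidneys. It had 509, 427, 401, 465 and 491 CPM in ARLmon testosterone libraries, against 506, 588, 529, 383 and 366 in ARLmon vehicle libraries. It had 1475, 1502, 1484, 1476 and 1391 CPM in WT testosterone libraries, against 637, 783, 965, 828 and 802 in WT vehicle libraries. Every ARLmon library of either treatment was below every WT library, the ARLmon groups overlapped, and the WT groups did not. The log2 change with testosterone was -0.05 in ARLmon kidneys (95% interval -0.31 to 0.21) and 0.87 ± 0.12 in WT kidneys (SE here and for all changes; edgeR adjusted p = 3.44e-05). The ARLmon minus WT difference was -1.68 ± 0.13 under testosterone (adjusted p = 1.72e-09) and -0.76 ± 0.12 under vehicle (adjusted p = 0.000631).

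Slc22a8, the gene of the partner carrier Oat3, moved the other way. It had 1216, 997, 985, 939 and 1135 CPM in ARLmon testosterone libraries, against 1323, 1536, 1129, 1071 and 1164 in ARLmon vehicle libraries. It had 331, 293, 322, 236 and 138 CPM in WT testosterone libraries, against 952, 1248, 1231, 667 and 496 in WT vehicle libraries. The WT testosterone libraries lay below all others, and the other 3 groups overlapped. The log2 change with testosterone was -0.24 in ARLmon kidneys (95% interval -0.71 to 0.23) and -1.80 ± 0.23 in WT kidneys (edgeR adjusted p = 9.12e-06). The ARLmon minus WT difference was 2.00 ± 0.24 under testosterone (adjusted p = 1.2e-06), and under vehicle it was 0.44 ± 0.23 and did not pass (adjusted p = 0.322).

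The ratio of Slc22a6 to Slc22a8 reads within a library, which does not depend on scaling, put the pair together. It ran from 0.407 to 0.495 in ARLmon testosterone, from 0.314 to 0.469 in ARLmon vehicle, from 4.46 to 10.1 in WT testosterone and from 0.627 to 1.62 in WT vehicle libraries. Per kilobase the means were 0.428, 0.374, 5.99 and 0.970 in these groups in the same order. No ARLmon library reached the lowest WT library, and the WT groups did not overlap.

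Slc22a7 and Slc22a22, the members on other chromosomes, both rose with testosterone in WT kidneys. Slc22a7, the Oat2 gene, had 204, 160, 188, 259 and 164 CPM in ARLmon testosterone libraries, against 152, 391, 250, 162 and 104 in ARLmon vehicle libraries. It had 258, 400, 343, 347 and 254 CPM in WT testosterone libraries, against 109, 67.9, 193, 132 and 66.3 in WT vehicle libraries, a log2 rise of 1.49 ± 0.31 (edgeR adjusted p = 0.00158). Both ARLmon groups overlapped both WT groups. The ARLmon minus WT difference was -0.72 ± 0.30 under testosterone (adjusted p = 0.0762) and 0.89 ± 0.30 under vehicle (adjusted p = 0.106), so that neither passed while their signs were opposite. Under testosterone the call was made by DESeq2 (-0.73, adjusted p = 0.0482), by a fit of the 2 groups alone (-0.70, adjusted p = 0.00259), without GC078604 (adjusted p = 0.0474) or GC078618 (adjusted p = 0.0382) and without GC078606 and GC078615 together (-0.84, adjusted p = 0.0432), and under vehicle without WT vehicle library GC078604 (1.17, adjusted p = 0.0194) or ARLmon vehicle library GC078621 (1.07, adjusted p = 0.0496).

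Slc22a22, the gene of the prostaglandin carrier, had 45.5, 54.6, 53.6, 83.0 and 79.1 CPM in ARLmon testosterone libraries, against 61.8, 49.1, 61.4, 58.7 and 42.7 in ARLmon vehicle libraries. It had 237, 168, 188, 196 and 119 CPM in WT testosterone libraries, against 98.4, 110, 78.9, 67.3 and 27.9 in WT vehicle libraries. The ARLmon groups overlapped and the WT groups did not. The log2 rise in WT kidneys was 1.24 ± 0.26 (edgeR adjusted p = 0.00174). All ARLmon testosterone libraries lay below all WT testosterone libraries (-1.52 ± 0.26, adjusted p = 0.000135). Under vehicle the groups overlapped and the difference of -0.49 ± 0.26 did not pass (adjusted p = 0.335), though it did without GC078606 and GC078615 (-0.69, adjusted p = 0.0376).

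Of the 6 neighbours, Slc22a30 had the largest rise with testosterone in WT kidneys. In ARLmon kidneys it had 8.36, 9.90, 12.6, 24.6 and 11.2 CPM with testosterone, against 10.1, 11.4, 8.67, 7.92 and 6.82 with vehicle. It had 345, 256, 289, 426 and 368 CPM in WT testosterone libraries, against 71.8, 93.4, 62.8, 51.4 and 24.0 in WT vehicle libraries, a log2 rise of 2.47 ± 0.29 (edgeR adjusted p = 2.42e-06). It was lower in ARLmon than in WT kidneys under testosterone (-4.64 ± 0.32, adjusted p = 4.47e-10) and under vehicle (-2.77 ± 0.31, adjusted p = 4.05e-06). Its ARLmon vehicle libraries were all below its WT vehicle libraries.

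Slc22a28, whose promoter nearly matches that of Slc22a30, changed in the same directions. Of its 50-base transcript windows 53.3% also occur in Slc22a30, and the part of either likeness in the shared directions was not tested. In ARLmon kidneys Slc22a28 had 21.3, 25.5, 28.7, 41.7 and 35.7 CPM with testosterone, against 26.3, 25.9, 22.4, 21.4 and 24.4 with vehicle. It had 212, 174, 201, 213 and 149 CPM in WT testosterone libraries, against 76.8, 78.1, 80.1, 56.0 and 21.4 in WT vehicle libraries, and rose by 1.60 ± 0.24 (edgeR adjusted p = 6.52e-05). The ARLmon minus WT difference was -2.63 ± 0.25 under testosterone (adjusted p = 6.53e-08) and -1.38 ± 0.24 under vehicle (adjusted p = 0.00133). Under vehicle GC078606 was the 1 WT library that was not above the ARLmon libraries.

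Slc22a29, placed between Slc22a28 and Slc22a30, had the opposite pattern in the counts. It had 40.5, 35.3, 43.5, 44.7 and 53.8 CPM in ARLmon testosterone and 41.1, 42.3, 38.1, 43.1 and 39.3 CPM in ARLmon vehicle libraries. WT testosterone libraries had 1.09, 1.33, 0.663, 0.886 and 2.28 CPM, resting on 59 reads in all, and WT vehicle libraries 8.23, 9.82, 7.13, 6.32 and 6.03. The ARLmon minus WT difference was 5.10 ± 0.21 under testosterone (edgeR adjusted p = 1.36e-13) and 2.44 ± 0.16 under vehicle (adjusted p = 1.29e-09), with no overlap in either. In the counts of WT kidneys testosterone lowered it (log2 change -2.57 ± 0.22, adjusted p = 2.84e-08).

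In the log2 table that the authors deposited beside the counts, the testosterone change was a rise. There Slc22a29 stood at 3.42 ± 0.224 in WT testosterone and 2.78 ± 0.441 in WT vehicle libraries, a log2 difference of 0.65 ± 0.17 (limma adjusted p = 0.0111). The 2 tables gave the same sign for ARLmon minus WT, where the log2 table had 1.49 ± 0.17 under testosterone (adjusted p = 1.4e-06) and 2.03 ± 0.17 under vehicle (adjusted p = 1.71e-07). The WT testosterone libraries hold the most reads of Slc22a30 and Slc22a28, and 9.23% and 4.99% of the 50-base windows of Slc22a29 occur in those genes; the part of such sharing in the disagreement was not tested. The testosterone change of Slc22a29 in WT kidneys thus depends on which deposited table is read.

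Slc22a27, the partner of Slc22a29 by sequence, was rare. It averaged 3.52 ± 0.960 CPM in ARLmon testosterone, 3.05 ± 0.356 in ARLmon vehicle, 0.464 ± 0.218 in WT testosterone and 0.862 ± 0.527 in WT vehicle kidneys, with 22 reads over the WT testosterone libraries. Between ARLmon and WT the difference was 2.90 ± 0.38 under testosterone (edgeR adjusted p = 5.44e-06) and 1.79 ± 0.31 under vehicle (adjusted p = 0.00122), without overlap. Because the gene passed the filter through the ARLmon libraries, where it is high, these values are given as a description. Both also passed when no filter on low counts was applied. Its testosterone change in WT kidneys was -0.89 ± 0.42 and did not pass (adjusted p = 0.165). In the log2 table that change was 1.65 ± 0.32 (limma adjusted p = 0.00136), the ARLmon minus WT difference under testosterone was -0.13 ± 0.32 (adjusted p = 0.787) and that under vehicle 1.06 ± 0.32 (adjusted p = 0.0773), so that none of its calls was made in both tables.

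**Figure D2:**
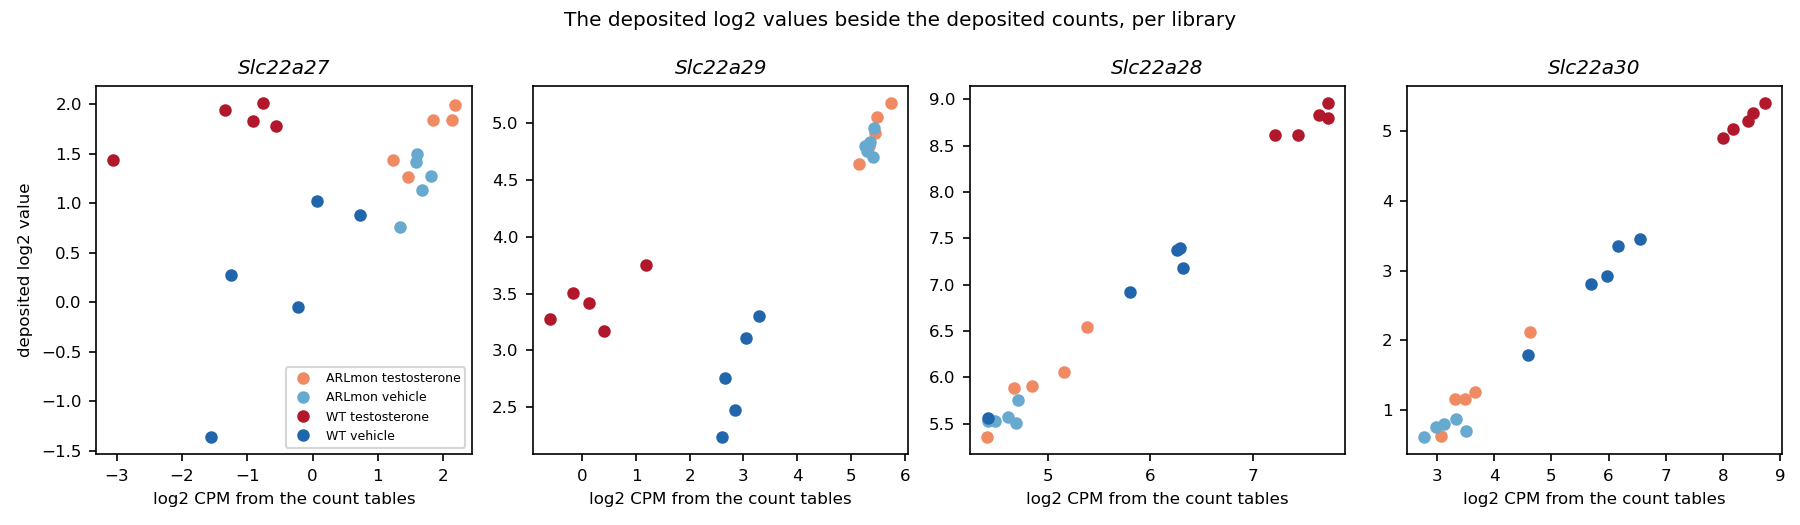
Deposited log2 value against log2 CPM from the counts for 4 neighbouring genes, with 1 point per library. The 20 points of Slc22a28 and those of Slc22a30 rise together on both axes, while the WT testosterone points of Slc22a27 and Slc22a29 lie apart: they are low in the counts, but in the log2 values they reach 2.02 for Slc22a27 and 3.75 for Slc22a29, above the highest WT vehicle points of 1.02 and 3.30.

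The first genes of the row, Slc22a19 and Slc22a26, passed in no comparison when all 20 libraries were used. Slc22a19, the Oat5 gene, averaged 158 ± 81.1 CPM in ARLmon testosterone, 109 ± 39.0 in ARLmon vehicle, 116 ± 26.0 in WT testosterone and 76.5 ± 25.1 in WT vehicle kidneys. Its changes with testosterone were 0.53 in ARLmon kidneys (95% interval -0.11 to 1.17) and 0.60 in WT kidneys (-0.04 to 1.24). Slc22a26 averaged 15.8 ± 15.4, 9.07 ± 4.06, 16.2 ± 5.24 and 17.1 ± 6.75 CPM in these groups in the same order. Its 95% intervals were wide, from -0.10 to 1.76 for testosterone in ARLmon kidneys and from -0.997 to 0.827 in WT kidneys. Library GC078615 had 43.1 CPM of Slc22a26, against at most 11.5 in the other ARLmon testosterone libraries. Without it and GC078606, Slc22a26 was lower in ARLmon than in WT kidneys under testosterone (-0.85, edgeR adjusted p = 0.0441) and under vehicle (-1.10, adjusted p = 0.0383).

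In ARLmon kidneys edgeR called 0 of the 10 genes with testosterone, and 0.00% of all genes. Of the 15549 genes tested 813 had an unadjusted edgeR p below 0.05, which chance alone gives in about 1 in 20 genes. DESeq2 and limma-voom also called 0 of the 10 and 0 of all genes. The ARLmon groups overlapped for all 10, and failed to overlap for 0.778% of all genes. The smallest unadjusted p among the 10 was that of Slc22a30 (0.0624, log2 change 0.60, 95% interval -0.03 to 1.23). The median log2 change of the 10 was 0.21, against 0.01 for all genes tested. In WT kidneys 5 of the 10 rose and 2 fell with testosterone, where 9.36% of all genes rose and 6.36% fell (15.7% in all). The same 7 genes were those whose WT groups did not overlap, against 12.6% of all genes. These calls are those of the counts. In the deposited log2 table Slc22a29, which fell in the counts, was called higher (0.65, limma adjusted p = 0.0111). Slc22a27, not called in the counts, was called higher there too (1.65, limma adjusted p = 0.00136). The median log2 change of the 10 was 0.73 in WT kidneys, against -0.03 for all genes tested.

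Between genotypes, 3 of the 10 were higher and 4 lower in ARLmon than in WT kidneys under testosterone, where 15.6% of all genes were higher and 15.5% lower (31.1% in all). Under vehicle 2 were higher and 3 lower, against 1.99% and 2.38% of all genes (4.37% in all). Slc22a27, kept by the filter through its ARLmon libraries, is 1 of the higher genes in each, which leaves 2 and 1 without it. Groups did not overlap for 7 of the 10 under testosterone (22.5% of all genes) and for 4 under vehicle (4.57% of all genes), and Slc22a27 is again 1 of them in each. Slc22a6, Slc22a28 and Slc22a30 were lower and Slc22a29 higher in ARLmon kidneys under either treatment. In the counts Slc22a27 was higher as well, a call that the deposited log2 table did not make under either treatment. These comparisons share libraries with those of testosterone and are not independent of them.

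**Figure D3:**
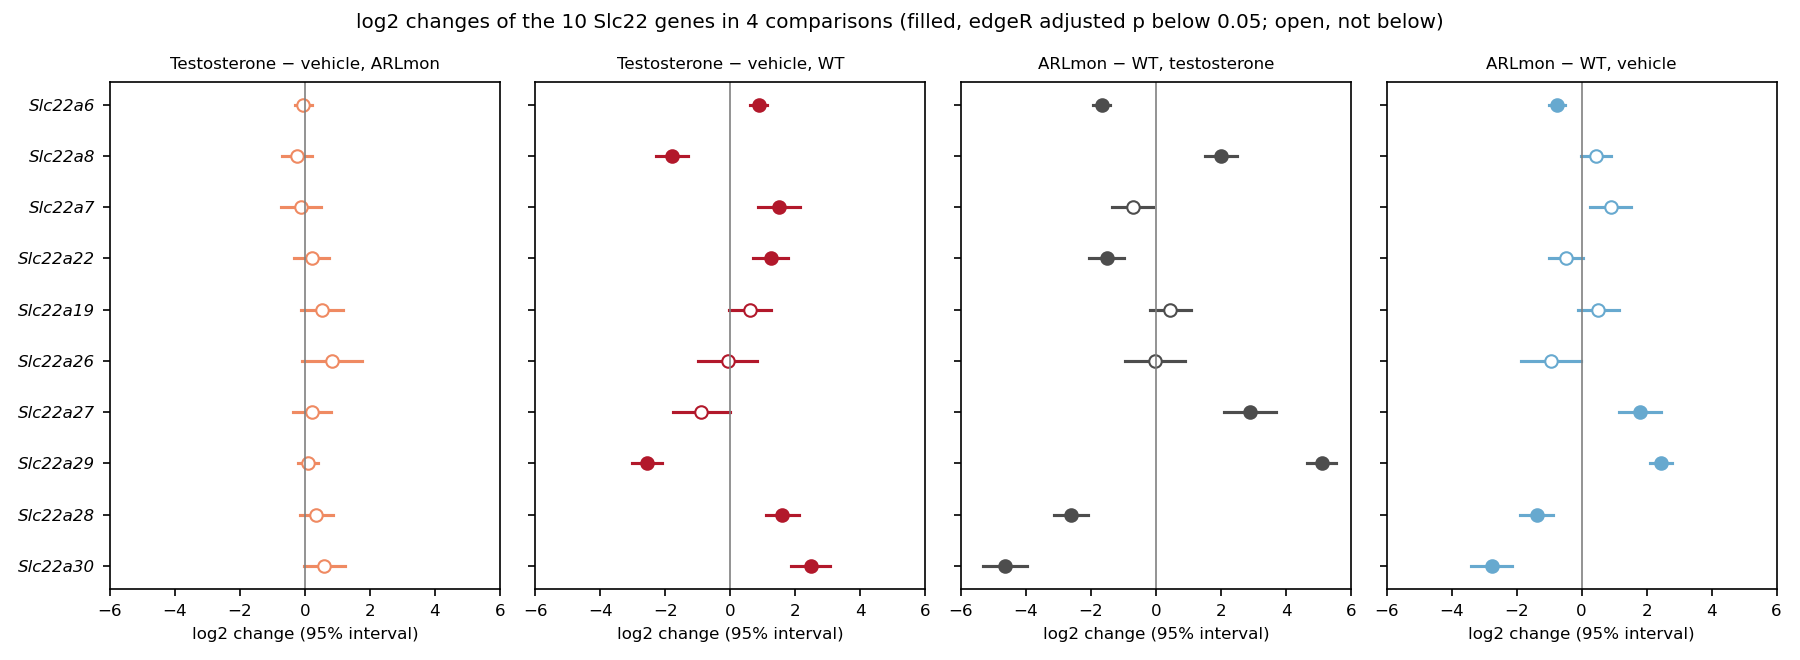
log2 change with its 95% interval for each gene in the testosterone comparisons of ARLmon and WT mice and in the genotype comparisons under testosterone and vehicle, filled where the edgeR adjusted p was below 0.05. In ARLmon mice every interval of the testosterone change includes 0.

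The difference between the testosterone responses, ARLmon minus WT, was tested as an interaction, which called 6 of the 10, 2 higher and 4 lower, against 1.42% and 3.34% of all genes (4.77% in all). It was 2.67 ± 0.27 for Slc22a29 (edgeR adjusted p = 1.44e-06), 1.56 ± 0.32 for Slc22a8 (adjusted p = 0.0046), -0.92 ± 0.18 for Slc22a6 (adjusted p = 0.00247) and -1.87 ± 0.41 for Slc22a30 (adjusted p = 0.0078). For Slc22a29 it turned to -0.54 (adjusted p = 0.217) in the log2 table. The calls of Slc22a7 (-1.61 ± 0.43, adjusted p = 0.0295) and Slc22a28 (-1.25 ± 0.34, adjusted p = 0.0358) were less firm. That of Slc22a7 was lost when any of 10 libraries was left out (GC078603, GC078606, GC078608, GC078609, GC078610, GC078613, GC078614, GC078616, GC078618 or GC078619; log2 -1.60 to -1.27, adjusted p up to 0.0616) and in the log2 table (adjusted p = 0.0635). That of Slc22a28 was lost without any of 11 (GC078605, GC078607, GC078609, GC078610, GC078612, GC078613, GC078614, GC078617, GC078618, GC078619 or GC078621; log2 -1.27 to -1.14, adjusted p up to 0.0743) and with library size as the only scaling (adjusted p = 0.0525). The interaction of Slc22a22 did not pass (-1.03 ± 0.36, adjusted p = 0.12), though it did without GC078606 and GC078615 (-0.95, adjusted p = 0.0495).

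The 6 neighbours summed, a quantity that does not change when reads are moved from one of them to another but does change if shared reads were discarded, had 230, 220, 237, 451 and 185 CPM in ARLmon testosterone libraries, against 185, 259, 210, 189 and 133 in ARLmon vehicle libraries. The sum was 647, 582, 605, 805 and 664 CPM in WT testosterone libraries, against 291, 263, 242, 228 and 101 in WT vehicle libraries, a log2 rise of 1.55 ± 0.25 (edgeR adjusted p = 0.000122). The ARLmon minus WT difference of the sum was -1.32 ± 0.25 under testosterone (adjusted p = 0.000329) and -0.21 ± 0.24 under vehicle (adjusted p = 0.708). Under vehicle the sum thus did not pass while its parts moved in opposite directions. The interaction of the sum was -1.11 ± 0.34 and did not pass (adjusted p = 0.0699), but it passed without GC078615 (-1.39, adjusted p = 0.00678), without GC078621 (-1.22, adjusted p = 0.0435) and in DESeq2 (-1.12, adjusted p = 0.0266) and limma-voom (-1.25, adjusted p = 0.0464).

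Within the 6 neighbours the reads were divided differently in each genotype. Slc22a30 held 5.00 ± 0.950% of their reads in ARLmon testosterone, 4.66 ± 0.604% in ARLmon vehicle, 50.7 ± 4.67% in WT testosterone and 26.5 ± 5.18% in WT vehicle libraries. Slc22a29 held 18.2 ± 6.93%, 21.8 ± 5.09%, 0.192 ± 0.0977% and 3.65 ± 1.35% in these groups in the same order. Slc22a19 held 57.9 ± 10.97% and 54.6 ± 8.35% in the ARLmon groups with testosterone and vehicle, against 17.7 ± 3.68% and 34.8 ± 6.40% in the WT groups. The ratio of Slc22a30 to Slc22a29 reads ran from 0.207 to 0.552 in ARLmon testosterone, from 0.173 to 0.269 in ARLmon vehicle, from 162 to 480 in WT testosterone and from 3.98 to 9.51 in WT vehicle libraries. These shares are those of the deposited counts and carry the uncertainty of Slc22a29 described above. The level of Slc22a30 is uncertain too. In WT testosterone libraries the counts per kilobase of exon put it within the spread of Slc22a28 (99.97 ± 19.8 against 94.7 ± 13.8 CPM per kb). The deposited log2 values put it below Slc22a28 (5.15 against 8.76).

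**Figure D4:**
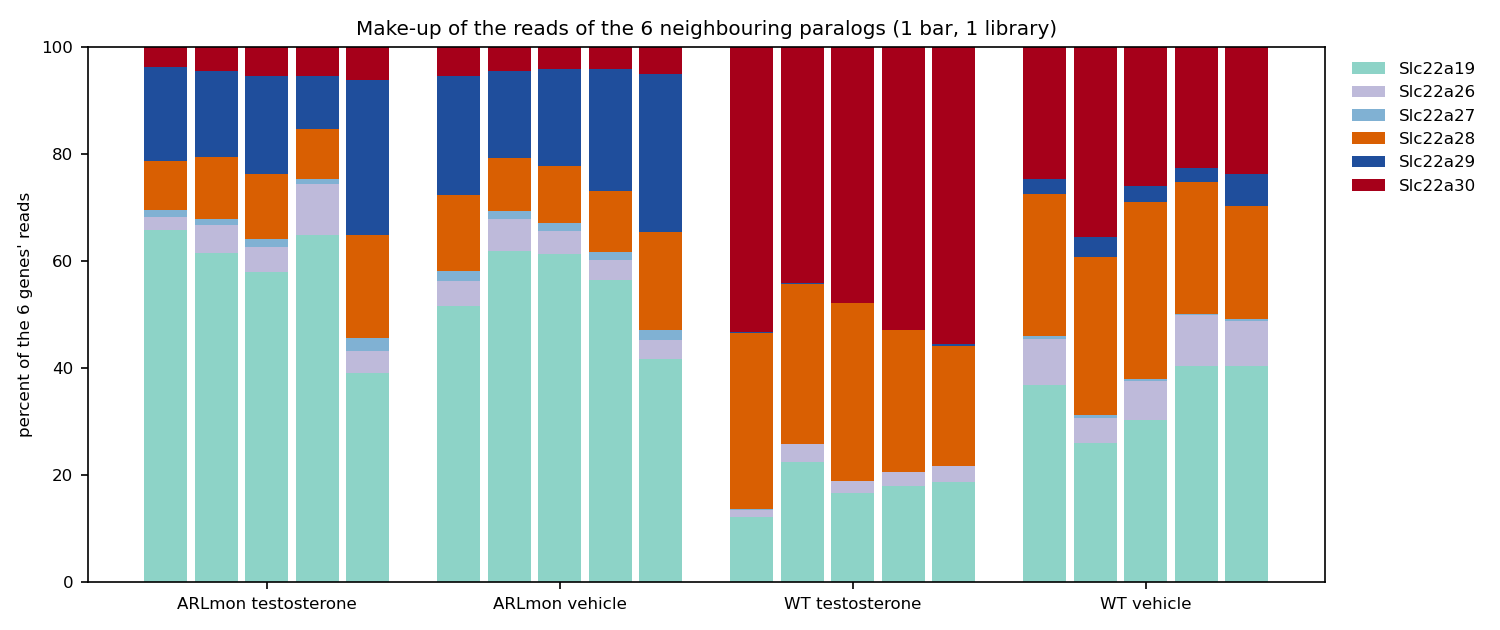
Share of the summed reads of the 6 neighbouring genes that each gene holds, with 1 bar per library and the groups from ARLmon testosterone at the left to WT vehicle at the right. Slc22a30 takes 44.0% to 55.4% in WT testosterone libraries and at most 6.08% in ARLmon libraries.

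Along chromosome 19 the direction differed between neighbours in the counts. From Slc22a27 to Slc22a6 the log2 changes with testosterone in WT kidneys were -0.89 (not passed), 1.60, -2.57, 2.47, -1.80 and 0.87, and the ARLmon minus WT differences under vehicle were 1.79, -1.38, 2.44, -2.77, 0.44 (not passed) and -0.76. Both sets of values use the WT vehicle libraries, with a minus sign in each, so they are not independent of each other. In the deposited log2 table the testosterone changes of Slc22a27, Slc22a28, Slc22a29 and Slc22a30 were all positive (1.65, 1.87, 0.65 and 2.29), so the signs do not differ between these 4 neighbours there. The ARLmon minus WT differences under vehicle kept their signs in that table. From Slc22a27 to Slc22a6 they were 1.06 (not passed), -1.31, 2.03, -2.12, 0.57 (not passed) and -0.71.

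**Figure D5:**
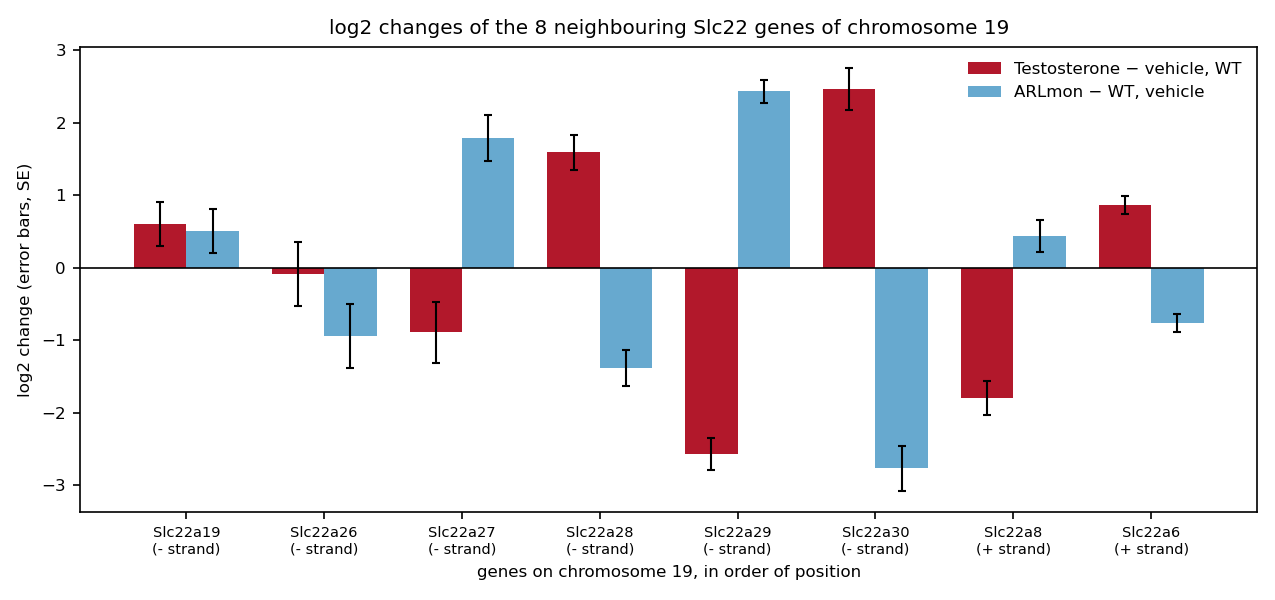
log2 change with testosterone in WT kidneys and log2 difference between ARLmon and WT kidneys under vehicle, with SE, for the 8 genes of chromosome 19 in order of position. Within each comparison the bars of neighbouring genes from Slc22a27 to Slc22a6 alternate in direction in the counts. The bars of Slc22a27 with testosterone and of Slc22a8 under vehicle did not pass. In the deposited log2 table the testosterone changes from Slc22a27 to Slc22a30 do not alternate.

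Proximal tubule markers were present in every library. The 8 markers summed to 9426 to 11159 CPM in ARLmon testosterone, 8274 to 9899 in ARLmon vehicle, 13734 to 15812 in WT testosterone and 7396 (GC078606) to 12985 in WT vehicle libraries. In WT kidneys 2 of the 8 rose with testosterone, Atp11a (2.698 ± 0.265) and Slc7a13 (2.56 ± 0.31), and 1 fell, Slc5a2 (-0.35 ± 0.12, edgeR adjusted p = 0.0457). Without Atp11a and Slc7a13 the other 6 averaged 9704 ± 757 CPM in ARLmon testosterone, 8971 ± 594.5 in ARLmon vehicle, 10954 ± 738 in WT testosterone and 10527 ± 2052 in WT vehicle libraries. In ARLmon against WT kidneys 0 of the 8 were higher and 2 lower under testosterone (Atp11a and Slc7a13; 15.6% and 15.5% of all genes). Under vehicle 0 were higher and 3 lower, these and Aqp1 (-0.61 ± 0.12, edgeR adjusted p = 0.00334), against 1.99% and 2.38% of all genes. In bulk tissue fewer proximal tubule cells and less RNA per cell cannot be told apart. Podocyte markers, all 3 of which fell with testosterone in WT kidneys, summed to 416 to 521 CPM in ARLmon testosterone, 439 to 556 in ARLmon vehicle, 240 to 303 in WT testosterone and 311 to 478 in WT vehicle libraries. The 4 measured adrenal markers summed to 34.9 CPM in 1 ARLmon vehicle library (GC078620) and to at most 2.29 in the other groups, where Cyp11b1 was at 0. The part of cell composition in the changes of the 10 genes was not tested.

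Among 13 other Slc22 genes tested, which include carriers of cations, of carnitine and of further anions, 0 passed with testosterone in ARLmon kidneys, and 2 rose and 1 fell in WT kidneys (median log2 change 0.02, against -0.03 for all genes). Slc22a2, which encodes the organic cation carrier Oct2, had 504 ± 27.9 CPM in WT testosterone and 241 ± 44.2 in WT vehicle kidneys (1.06 ± 0.14). The urate carrier gene Slc22a12 (Urat1) rose by 0.41 ± 0.12, and Slc22a23 fell by 0.72 (SE 0.12). Between genotypes 5 were higher and 2 lower in ARLmon than in WT kidneys under testosterone, and 0 were higher and 1, Slc22a12, lower under vehicle (-0.68 ± 0.12). Of all genes 9.36% rose and 6.36% fell with testosterone in WT kidneys. In ARLmon against WT kidneys 15.6% of all genes were higher and 15.5% lower under testosterone, and 1.99% higher and 2.38% lower under vehicle.

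Of 17 genes of organic anion handling outside the family, 0 passed with testosterone in ARLmon kidneys, and 7 rose and 1 fell in WT kidneys (median 0.24). Slco1a1, an organic anion transporting polypeptide gene, rose by 6.20 ± 0.23 and had 1431 ± 274 CPM in WT testosterone and 19.5 ± 3.14 in WT vehicle kidneys. The apical phosphate and anion carrier genes Slc17a3 and Slc17a1 rose by 1.63 ± 0.17 and 0.62 ± 0.08, and the monocarboxylate carrier gene Slc5a8 by 1.72 ± 0.20. The efflux pump gene Abcc4, whose product releases anions into the lumen, fell by 1.096 (SE 0.177), with 32.3 ± 2.92 CPM in WT testosterone and 69.1 ± 14.7 in WT vehicle kidneys. The gene of the dicarboxylate carrier Slc13a3 (-0.32 ± 0.16), which feeds the exchange used by Oat1 and Oat3, did not pass. Under vehicle 1 was higher (Abcc4, 1.32 ± 0.17) and 4 were lower in ARLmon than in WT kidneys, and under testosterone 2 were higher and 10 lower. The shares of all genes to set beside these counts are those given for the other Slc22 genes.

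Of 14 regulators, 0 passed with testosterone in ARLmon kidneys, and 4 rose and 2 fell in WT kidneys (median 0.20). Hnf4a, which encodes a known activator of the genes of Oat1 and Oat3, rose by 0.31 ± 0.09. Bcl6, which encodes a transcriptional repressor, rose by 2.24 ± 0.34, with 151 ± 44.3 CPM in WT testosterone and 32.0 ± 20.1 in WT vehicle kidneys. The prolactin receptor gene Prlr fell by 3.89 (SE 0.31), Cux2 fell by 0.52, and the growth hormone receptor gene Ghr rose by 0.85 ± 0.20. Under vehicle 1, Prlr, was higher in ARLmon than in WT kidneys (1.28 ± 0.26), and under testosterone 2 were higher and 5 lower. The same shares of all genes apply to the counts of regulators.

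The genes whose log2 CPM followed each of the 3 most variable members most closely over the 20 libraries were found by the root mean square difference of centred log2 CPM. Only genes that averaged 5 CPM or more were taken, and genes with provisional symbols, such as Gm or Rik names, were left out. For Slc22a30 these were Ugt8a (0.574), Chst7 (0.586) and Fmo5 (0.589). For Slc22a29 they were Baat (0.594), Prlr (0.615) and Gc (0.788). For Slc22a28 they were Osbp2 (0.227), Acy3 (0.360) and Erc2 (0.371). Osbp2 averaged 7.46 CPM in ARLmon testosterone, 6.72 in ARLmon vehicle, 54.4 in WT testosterone and 15.9 in WT vehicle kidneys.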

How the data were processed

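Kidney RNA was prepared with a stranded mRNA kit and sequenced on an Illumina HiSeq4000, per the labels. The submitters' processing notes list FastQC 0.11.7, HISAT2, SAMtools 1.5, HTSeq 2.7.14 (as listed), DESeq2 and the mm10 build. Settings, annotation and the strand setting of the counting are not given in the sources used here. The authors deposited 4 tables of raw counts per gene, each with 10 libraries, and a table of log2 values for 20550 genes exported from Qlucore, per the file headers, whose normalization is not stated.

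The count tables were joined into 24762 genes by 20 libraries. They held equal values wherever they shared a library, and 12045 values in 1713 genes that a table left out were set to 0. Columns name a library code and, through the log2 table, its group, but not the replicate number. No libraries of one group were copies (chi-square per degree of freedom between 5.23 and 139).

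After filterByExpr, 15549 genes were fitted with edgeR 4.0.16 (R 4.3.3) by quasi-likelihood on 4 group means (TMM factors, 16 residual degrees of freedom), with Benjamini-Hochberg adjustment over all of them. The fit was repeated with the 6 neighbours replaced by their sum. The log2 table was fitted with limma 3.58.1. Other settings tried were DESeq2 1.42.0 and limma-voom in place of edgeR, RLE factors or library size alone in place of TMM, no filter, a filter at 1 CPM in at least 5 libraries, only the groups being compared, and each library left out. A fit without GC078606 and GC078615 was added after the data were seen. The tests were checked on simulated counts. Transcripts and positions came from GENCODE M21 and promoters from RefSeq (GRCm38.p6), aligned with Biopython 1.88.

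All 10 members are named in every comparison, and of each list up to 4 genes with the smallest p in the WT testosterone comparison, besides a few named for their role or to complete a short count, chosen after their values were seen. A few genes of the lists are counted but not reported here by name. The members and the lists were chosen with earlier results of these data known.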

Additional observations from a re-analysis of the deposited data

Results flagged for a closer look

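In 44 checks of a gene or the summed neighbours within a group of 5 libraries, 4 had 1 library apart by Dixon's test at its 95% critical value, which chance gives in about 1 in 20 groups. Library GC078615 was the highest of the ARLmon testosterone group for Slc22a26 (43.1 CPM, next 11.5), Slc22a30 (24.6 CPM, next 12.6) and the sum of the 6 neighbours (451 CPM, next 237). Library GC078611 was the lowest of the WT testosterone group for Slc22a6 (1391 CPM, next 1475).

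For 6 genes the testosterone response differed between the genotypes by the edgeR interaction test. The log2 response in ARLmon minus that in WT was -0.92 for Slc22a6, 1.56 for Slc22a8, -1.61 for Slc22a7, -1.25 for Slc22a28, 2.67 for Slc22a29 and -1.87 for Slc22a30. Leaving out any of 10 libraries ended the call of Slc22a7, and any of 11 that of Slc22a28. In the log2 table of the authors that of Slc22a29 was negative (-0.54).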

How the results depend on the processing

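The 5 counts of called members stayed within 1.5 times the main count in all settings tried, and without 1 library they ran from 0 to 0 for testosterone in ARLmon, 7 to 7 in WT, 7 to 8 and 5 to 6 for ARLmon minus WT under testosterone and vehicle, and 4 to 6 for the interaction. Without GC078606 and GC078615, a setting chosen after the data were seen, they were 0, 7, 9, 7 and 7 in that order. The interaction of the summed neighbours (-1.11, not passed) passed with DESeq2 (-1.12), with limma-voom (-1.25) and without GC078606 and GC078615 (-1.21), and ran from -1.39 to -0.93 without 1 library. Signs turned in the deposited log2 table for Slc22a27 and Slc22a29 with testosterone in WT (1.65 and 0.65), for Slc22a27 in ARLmon minus WT under testosterone (-0.13), for the interactions of Slc22a27 and Slc22a29 (-1.19 and -0.54), and for the uncalled testosterone changes in ARLmon of Slc22a6 (0.005) and Slc22a7 (0.049). The cause was not tested. Uncalled values also turned for Slc22a7 in ARLmon with limma-voom (0.007) and, with library size alone, for Slc22a26 in ARLmon minus WT under testosterone (0.21) and for the interaction of Slc22a19 (0.12). Without 1 library the uncalled values that turned ran from -0.24 to 0.086 for Slc22a26 and testosterone in WT, from -0.85 to 0.18 for Slc22a26 in ARLmon minus WT under testosterone, from -0.13 to 0.041 and -0.29 to 0.22 for Slc22a6 and Slc22a7 with testosterone in ARLmon, and from -0.42 to 0.11 for the interaction of Slc22a19. For the interaction a fit of the compared groups alone is the same as that of all 4. No paired analysis was possible because the columns carry library codes without the replicate numbers of the labels.

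Depth limits Slc22a27, with 22 reads over 5 WT testosterone libraries, and Slc22a29, with 59. Near-identical transcripts limit what can be said of Slc22a27 to Slc22a30 as single genes.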
